A study of Mus musculus with 4 samples.

Results

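Npas3 encodes a transcription factor of the brain, and its locus is described here by the H3K27ac HiChIP interactions listed for it in adult mouse cortical interneurons that express somatostatin (SST) or vasoactive intestinal peptide (VIP). The members are all interactions with at least 1 anchor overlapping chr12:54000000-55250000 (build mm9) by 1 bp or more. There were 96 in the SST list of 8278 and 67 in the VIP list of 6733, or 163 of 15011 in all. The window was chosen by the number of interactions that earlier results had shown there in both lists, so these counts describe the choice and test nothing. The SST nuclei came from mice of genotype Sst-cre; Sun1 and the VIP nuclei from mice of genotype Vip-cre; Sun1, both on a C57BL/6 background. All mice thus carry the Sun1 tag on the nuclear envelope, which Cre switches on and by which the nuclei were purified (INTACT), so each group is whatever cortical nuclei that Cre driver marks. The age is given only as adult, and the sources used here do not give the number of animals behind a sample. The labels name 4 samples, 2 per cell type. Of these, 1 interaction list per cell type, attached to replicate 1, was analysed, and the sources used here do not say whether a list pools replicates.

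HiChIP joins and sequences pieces of DNA that lie close together in the nucleus and keeps those that carry a chosen chromatin mark. H3K27ac is an acetylated histone found at active promoters and enhancers, so a contact is kept where at least 1 of the joined pieces carries this mark. The joined regions of a listed interaction are called anchors, and the lists hold no H3K27ac level for them. NPAS3 belongs to the bHLH-PAS family of transcription factors, which bind DNA as dimers with a partner of the ARNT type. It is expressed in the developing and adult brain, is known for roles in neurogenesis and in the generation of cortical interneurons, and its long introns hold many conserved noncoding elements. In the order of protein-coding genes of RefSeq (GRCm38.p6), Npas3 lies between Akap6, which encodes an anchoring protein for protein kinase A, and Egln3, which encodes a prolyl hydroxylase acting on hypoxia-inducible factors.

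The rule places Npas3 near 54.35 to 55.18 Mb, an approximate mm9 span, and the gene lies on the plus strand, so its start is at the lower coordinate. In both lists the approximate start falls in an anchor with the same borders, chr12:54344636-54368763, which is called the start anchor below and from whose centre distances are measured. The promoter sequence of RefSeq is shown because this anchor was the busiest one of the SST list at the locus. It comes from chr12:53248182-53248481 of GRCm38.p6, plus strand, and holds 250 bases before and 50 bases after the annotated start, with each CG dinucleotide in capitals. As the interactions are in mm9, the promoter could not be placed within the anchor to the base.
Npas3 promoter: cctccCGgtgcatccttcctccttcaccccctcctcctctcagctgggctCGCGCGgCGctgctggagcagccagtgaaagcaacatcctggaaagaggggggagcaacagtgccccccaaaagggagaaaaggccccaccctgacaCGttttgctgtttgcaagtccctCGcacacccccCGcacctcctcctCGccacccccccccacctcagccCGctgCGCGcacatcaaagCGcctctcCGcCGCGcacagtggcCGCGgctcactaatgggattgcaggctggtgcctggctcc
The 300 bases held 18 CG dinucleotides and were 66.3% G or C. Over 32851 RefSeq promoters of the same length the median was 7 CG dinucleotides and 52.7% G or C, and 29.7% of them had at least as many CG. The restriction enzyme of the assay, MboI, cuts at GATC, a motif that reads the same on both strands. It was absent from this window, while 48.0% of the promoters held it. This says only that these letters are not in the 300 bases.

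Read depth is unknown, because the lists hold coordinates and no read count, score or p-value. No spread between replicates can be had from a single list per cell type, so no test was run. Intervals below are exact 95% intervals (Poisson for counts, Clopper-Pearson for shares, order statistics for medians). Counting error is all they cover, and they treat interactions as independent, although members share anchors. A contact that a list leaves out was not called in that list, and it may still exist. Markers of SST, VIP or other cells could not be checked, since an mm9 annotation was not used here.

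The locus was dense in both cell types. The 96 SST members (interval 77.8 to 117) amounted to 11.6 per 1000 listed for SST, and the 67 VIP members (51.9 to 85.1) to 9.95 per 1000 listed for VIP. The ratio of these was 1.17 with a counting interval of 0.844 to 1.62, which includes equality. When distinct anchors of the window were counted in place of interactions, there were 23 of 5842 listed in SST and 22 of 4850 in VIP. The ratio of these shares was 0.868 (0.462 to 1.63). Without the VIP members at the widest VIP anchor the ratio of interactions per 1000 was 1.77 (1.23 to 2.59), an interval that lies above equality. This removal was on the VIP side alone and raises the ratio by construction. All 96 SST members were kept, 43 of them at SST anchors over that VIP anchor. The genome was divided from position 1 of each chromosome into windows of the same width, 1.25 Mb, and 1120 of those away from the locus held an interaction, with a median of 4 in SST and 3 in VIP. Of these, 0.268% (3 windows) had at least as many SST interactions as the locus, 0.536% (6 windows) had at least as many VIP interactions, and 0% (no window) had at least as many of both. The window of the rule was drawn around the locus while the grid cuts through other loci, so the locus has an advantage in this ranking.

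**Figure D1:**
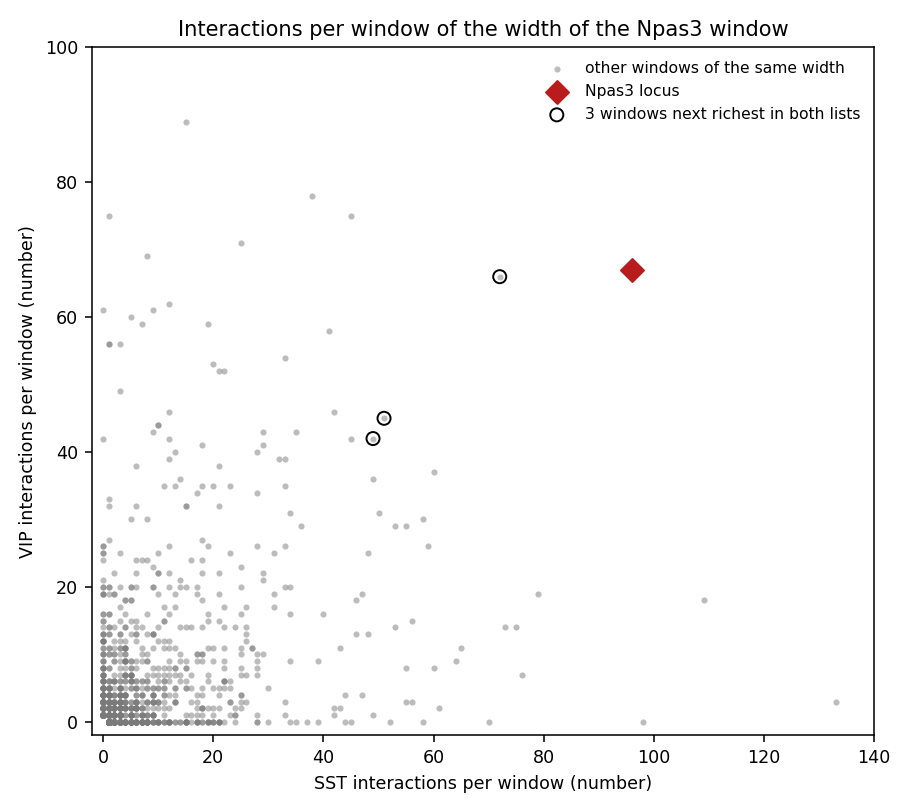
SST interactions (x axis, number) against VIP interactions (y axis, number) for 1120 windows of 1.25 Mb with at least 1 interaction (grey points) and for the Npas3 locus (red diamond). The locus stands at 96 and 67, and the 3 circled windows, the next richest in both lists, stand at 72 and 66, 51 and 45, and 49 and 42.

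The other windows richest in both lists showed how the locus compares with like regions. They were chr2:30000001-31250000 with 72 SST and 66 VIP interactions, chr6:135000001-136250000 with 51 and 45, and chr2:70000001-71250000 with 49 and 42. In the first of them 62.5% of SST and 71.2% of VIP interactions were also in the other list, in the second 39.2% and 51.1%, and in the third 63.3% and 71.4%. The Npas3 locus, at 59.4% and 79.1%, was within the range of these windows in SST and above it in VIP. No test was run on these differences.

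At Npas3 the anchors formed a single connected network in each cell type. The 25 anchors of the SST members, 2 of them outside the window, were all joined through interactions, and so were the 24 anchors of the VIP members, 2 of them outside. No anchor in either set took part in an interaction that was not a member, so the network was closed in both lists. For anchors in the window this follows from the rule, and only the 2 outside anchors of each list could have shown otherwise. Of the interactions, 85 in SST and 61 in VIP had both anchors over the approximate gene span. Among all pairs of anchors in the window that were no farther apart than the longest interaction of the list, 35.2% were linked in SST (89 of 253, interval 29.3 to 41.4%) and 28.1% in VIP (64 of 228, 22.3 to 34.4%), against 20.5% and 22.1% over the whole lists. When an anchor was linked to a pair of others, those were linked to each other in 60.1% of cases in SST and 52.6% in VIP, against 37.6% and 39.8% over the lists. In the 3 windows named above, between 12.0 and 40.7% of the anchor pairs were linked in SST and between 8 and 24.6% in VIP. The locus was thus within their range in SST and above it in VIP, where its interval reaches down to 22.3%. A locus chosen for many interactions has a high linked share in part by that choice, and no test of these differences was run.

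**Figure D2:**
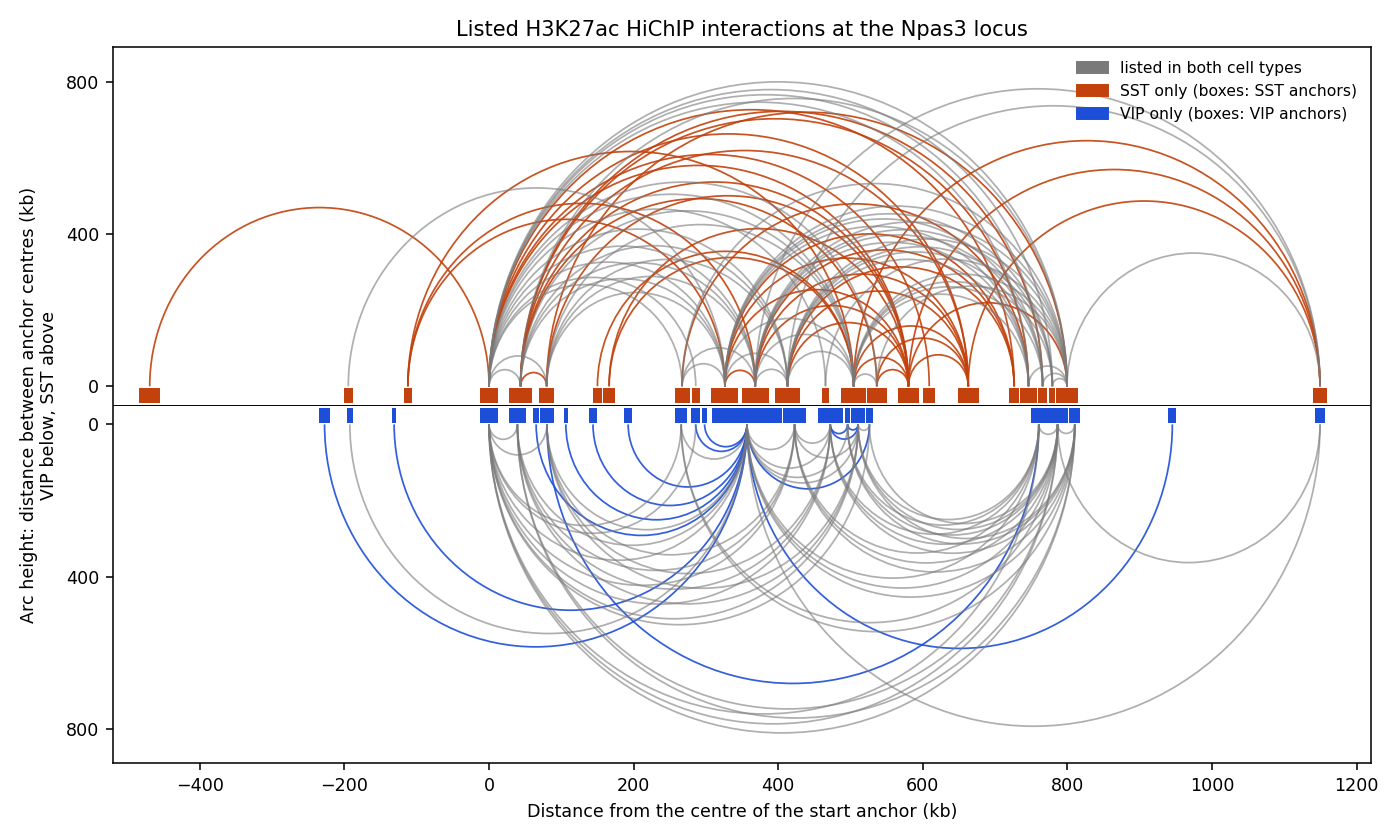
Arcs join the anchor centres of each member, with SST above and VIP below; the x axis is the distance from the centre of the start anchor (kb) and the arc height is the distance between the centres (kb). Grey arcs were listed in both cell types, and coloured arcs in one; SST arcs of its own gather at anchors 580.0 to 726 kb downstream, where VIP has no anchor, and most VIP arcs of its own end at the wide anchor 357 kb downstream.

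The start anchor was linked far into the gene in both cell types. In SST it had 19 interactions (interval 11.4 to 29.7), of which 18 ran downstream, over 43.6 to 799 kb. In VIP it had 12 (6.20 to 21.0), all running downstream, over 39.2 to 810.1 kb. The counting intervals overlap. Every one of the 12 VIP interactions was also listed in SST, and 14 of the 19 SST interactions were also listed in VIP. Of the 5 without a counterpart, 4 ended in a stretch without VIP anchors that is described below. The fifth ran upstream over 469 kb to chr12:53872688-53902054, outside the window. That anchor had no other interaction and no overlapping VIP anchor.

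Of the anchors next to the start anchor, a pair within 100 kb downstream stood in both lists. The SST anchor chr12:54384525-54416035 had 12 interactions, and the VIP anchor chr12:54384257-54407476, which overlaps it, had 7. The next pair, chr12:54426287-54446470 in SST and chr12:54427220-54446367 in VIP, had 8 and 6. All 7 interactions of the first VIP anchor and 5 of the 6 of the second were listed in SST as well. At each of these 3 promoter-side positions SST had more listed interactions than VIP, with counting intervals that overlap. These counts are not scaled to the length of the lists, 8278 in SST and 6733 in VIP. At all 3 positions they include SST links to the stretch without VIP anchors.

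The centre of the locus held the busiest anchor of VIP. It spanned chr12:54664991-54761796, 96.8 kb, the widest anchor of the whole VIP list, and took part in 23 interactions (interval 14.6 to 34.5). SST had 3 anchors over it, chr12:54664022-54701668 with 16 interactions, chr12:54706041-54743493 with 16 and chr12:54752718-54786101 with 14. The third also overlapped the VIP anchor chr12:54763037-54795546, which had 9. Together these 3 SST anchors took part in 43 different interactions, and 31 of the 43 had a VIP counterpart. Of the 43, 9 led to the stretch without VIP anchors that is described below. The lists thus divided this region into anchors differently, and what that adds to the counts was not tested. The interaction between the first and the second of these SST anchors cannot have a VIP counterpart, since both lie on the 1 VIP anchor.

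Further busy anchors lay downstream of the centre. SST had 17 interactions at chr12:54843861-54878108, where VIP had anchors chr12:54810950-54846100 with 10, chr12:54848732-54856539 with 6 and chr12:54857102-54877132 with 11. Near the approximate gene end, SST had 15 interactions at chr12:55140398-55171763, of which 13 were shared. VIP had 12 at chr12:55128823-55157299 and 9 at chr12:55159344-55174317, and all of these were shared. In the window, 8 of 23 SST anchors (34.8%, 16.4 to 57.3%) had 10 or more interactions, against 4.43% of all SST anchors, and 5 of 22 VIP anchors (22.7%, 7.82 to 45.4%) against 4.27% of all VIP anchors. Since the locus was chosen for its many interactions, these shares are part of the choice. They also depend on how anchors were divided: when anchors within 5 kb of each other were merged, the busiest anchor of the locus had 12 interactions in SST and 15 in VIP.

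**Figure D3:**
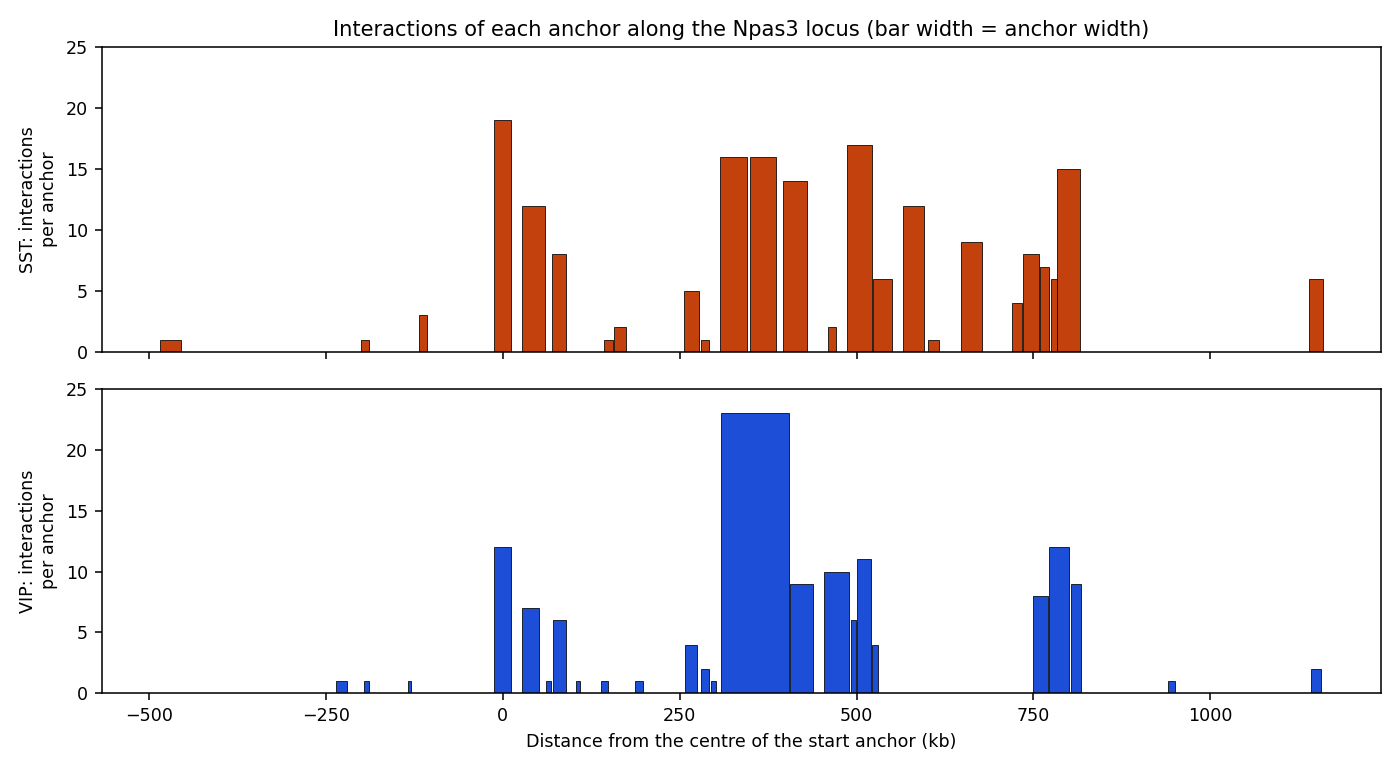
Interactions of each anchor (y axis, number) against its distance from the centre of the start anchor (x axis, kb), with SST above and VIP below; a bar is as wide as its anchor. The start anchor stands at 19 in SST and 12 in VIP, the wide VIP anchor at 23, and VIP has no bar over the SST anchors with 12, 1, 9 and 4 interactions at 580.0, 609, 663 and 726 kb.

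The lists differed over a stretch in the downstream part of the gene. VIP listed no anchor between 54887358 and 55106275, a stretch of 219 kb, while SST had 4 anchors that lie wholly inside it. These were chr12:54922019-54951366 with 12 interactions, chr12:54957304-54973604 with 1, chr12:55004774-55034021 with 9 and chr12:55076083-55089843 with 4. They took part in 25 different SST interactions, 26.0% of the SST members (interval 17.6 to 36.0%), and by construction none had a VIP counterpart. Only 1 of the 25 joined anchors of the stretch to each other. The others led to 11 anchors outside it, of which 10 overlapped a VIP anchor, the start anchor and the 3 central anchors among them. The start anchor was linked to each of the 4 anchors of the stretch, and the 3 central anchors took part in 9 of the 25 interactions.

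Other stretches of this kind stood in the lists. Of 683 gaps of up to 1 Mb between neighbouring VIP anchors that held an SST anchor, 17 (2.49%) had at least 25 SST interactions at the anchors inside, the one at Npas3 included, and 99 (14.5%) held at least 4 SST anchors. The locus was chosen for its many interactions, which bears on the first count. This stretch was singled out after its values were seen. At the locus, 2 other gaps between VIP anchors held an SST anchor, with 3 and 2 interactions. In the opposite direction, 7 gaps between SST anchors held a VIP anchor, each with 1 anchor and 1 interaction. Without the members at the 4 SST anchors, and with all VIP members kept, the SST to VIP ratio per 1000 was 0.865 in place of 1.17. Its counting interval of 0.610 to 1.23 includes equality.

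Most interactions listed in VIP alone formed a star on the central anchor. Of the 14 VIP members without an SST counterpart, 10 ended at the wide anchor chr12:54664991-54761796. VIP had 8 anchors in the window with a single interaction, and in all 8 the partner was that wide anchor. They were between 4.83 and 15.6 kb wide, and 6 of them had no overlapping SST anchor. In SST, 4 anchors in the window had a single interaction, and 2 of the 4 were tied to the start anchor. Of the other VIP interactions without a counterpart, 3 joined the anchors between 54810950 and 54877132 to each other over 14.5 to 38.6 kb, where SST had the anchors chr12:54816856-54827076 and chr12:54843861-54878108. The last joined chr12:54427220-54446367 to chr12:55106275-55127813 over 680.2 kb.

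Few interactions left the window. Downstream, both lists had an anchor 1149 kb from the start anchor, chr12:55496115-55515699 in SST with 6 interactions and chr12:55498746-55513222 in VIP with 2. Both VIP interactions were shared, and 3 of the 6 SST interactions were. Of the remaining SST interactions of this anchor, 2 came from the stretch without VIP anchors. No list held an interaction between this anchor and the start anchor, and that separation exceeds the longest interaction of either list, 999.7 kb for SST and 995.5 kb for VIP. VIP had 1 more outside anchor, chr12:55296088-55307365, linked to the wide central anchor. Upstream, the first anchors inside the window lay 156 kb from its border in SST and 121 kb in VIP. The nearest ones beyond that border lay 97.9 kb away in SST, the anchor already named, and 1892 kb away in VIP. At the downstream border the last anchors inside lay 78.2 kb from it in SST and 75.7 kb in VIP, and the first outside 246 kb and 46.1 kb.

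Upstream of the start anchor, in the direction of Akap6, links were few in both cell types. One interaction was shared there: chr12:54156119-54167925 in SST was joined to the first central anchor, and chr12:54160425-54167925 in VIP to the wide one. SST had a further anchor at chr12:54238813-54250037 with 3 interactions, and VIP had anchors at chr12:54121367-54136996 and chr12:54223000-54227828 with 1 each. None of these 3 overlapped an anchor of the other list. Which of them lie on Akap6 was not determined here.

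Over all members, 57 of 96 SST interactions had a VIP counterpart, meaning that both anchors overlapped those of a VIP interaction, which is 59.4% (interval 48.9 to 69.3%) against 21.4% over the whole SST list. In VIP, 53 of 67 had an SST counterpart, 79.1% (67.4 to 88.1%) against 25.8%. SST anchors were wider in the window, with a median of 20.5 kb (13.1 to 29.3 kb) against 11.8 kb over the list. In VIP the median was 15.3 kb (7.81 to 23.2 kb) against 12.4 kb, which that interval includes. A wide anchor meets an overlap of 1 bp more readily, and the part of width in the shares here and below was not tested. Among windows with 81.5 or more interactions over both lists, which is 50% of the sum at the locus, and 10 or more in the list in question, 2 of 24 (8.33%) shared at least as large a part of their SST interactions and 2 of 21 (9.52%) at least as large a part of their VIP interactions. The medians of those windows were 30.8% and 34.5%. Without the members at the 4 anchors of the stretch empty in VIP, 57 of 71 SST interactions were shared, 80.3% (69.1 to 88.8%). None of the members left out could be shared, so this share could only rise. VIP anchors without an SST counterpart were kept. Leaving out the wide VIP anchor, the SST share was 35.4% and the VIP share 90.9%. All 96 SST members were kept there, so those with a counterpart only at that anchor became unshared by construction.

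Members found in 1 list only had neither anchor in the other list less often, and both more often, than such interactions over the lists. Of the 39 SST members found in SST only, 2 had neither anchor in the VIP list (5.13%, interval 0.627 to 17.3%). Another 28 had 1 (71.8%) and 9 had both (23.1%, 11.1 to 39.3%). Over the SST list, 51.1% of such interactions had neither, 38.5% had 1 and 10.4% had both. Of the 14 found in VIP only, 7 had 1 anchor in the SST list, 7 had both (50%, 23.0 to 77.0%) and 0 had neither. Over the VIP list, 45.8% had neither, 42.5% had 1 and 11.8% had both. Anchors of the window overlapped an anchor of the other list in 17 of 23 cases in SST (73.9%, 51.6 to 89.8%) and 16 of 22 in VIP (72.7%, 49.8 to 89.3%), against 36.9% and 43.5% of all anchors. Both anchors were present in the other list for 66 of 96 SST members (68.8%, 58.5 to 77.8%) against 29.6% of the SST list, and for 60 of 67 VIP members (89.6%, 79.7 to 95.7%) against 34.6% of the VIP list. Where both were present, the link was listed there too in 57 of 66 cases in SST (86.4%, 75.7 to 93.6%) and 53 of 60 in VIP (88.3%, 77.4 to 95.2%). Over the lists these values were 72.5% and 74.8%. The borders of anchors rarely matched to the base: 6 positions were borders in both lists, of 50 in SST and 48 in VIP, and the start anchor was the only one with identical borders.

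To compare links without regard to how each list divides a region, overlapping anchors of the members of both lists were joined into 27 common blocks, and each link between blocks was counted once. Anchors of both lists stood in 13 blocks, SST alone in 7 and VIP alone in 7. Between the 13 common ones, 73 pairs lay within 1 Mb. Of these pairs 27 were linked in both lists, 7 in SST only, 4 in VIP only and 35 in neither. A pair linked in SST was thus linked in VIP in 79.4% of cases (62.1 to 91.3%), and a pair not linked in SST in 10.3% (2.87 to 24.2%). From the VIP side the shares were 87.1% (70.2 to 96.4%) and 16.7% (6.97 to 31.4%). Over all 27 blocks, those of 1 list alone included, the block of the start anchor was linked to 14 blocks in SST and 9 in VIP. The central block, 132 kb wide, was linked to 13 and 19. Such numbers include SST links to the stretch without VIP anchors and VIP links to blocks without SST anchors. For the 13 common blocks, numbers counted in this way had a Spearman correlation of 0.94 between the lists. This is a description over blocks that share interactions and lie in 1 locus.

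**Figure D4:**
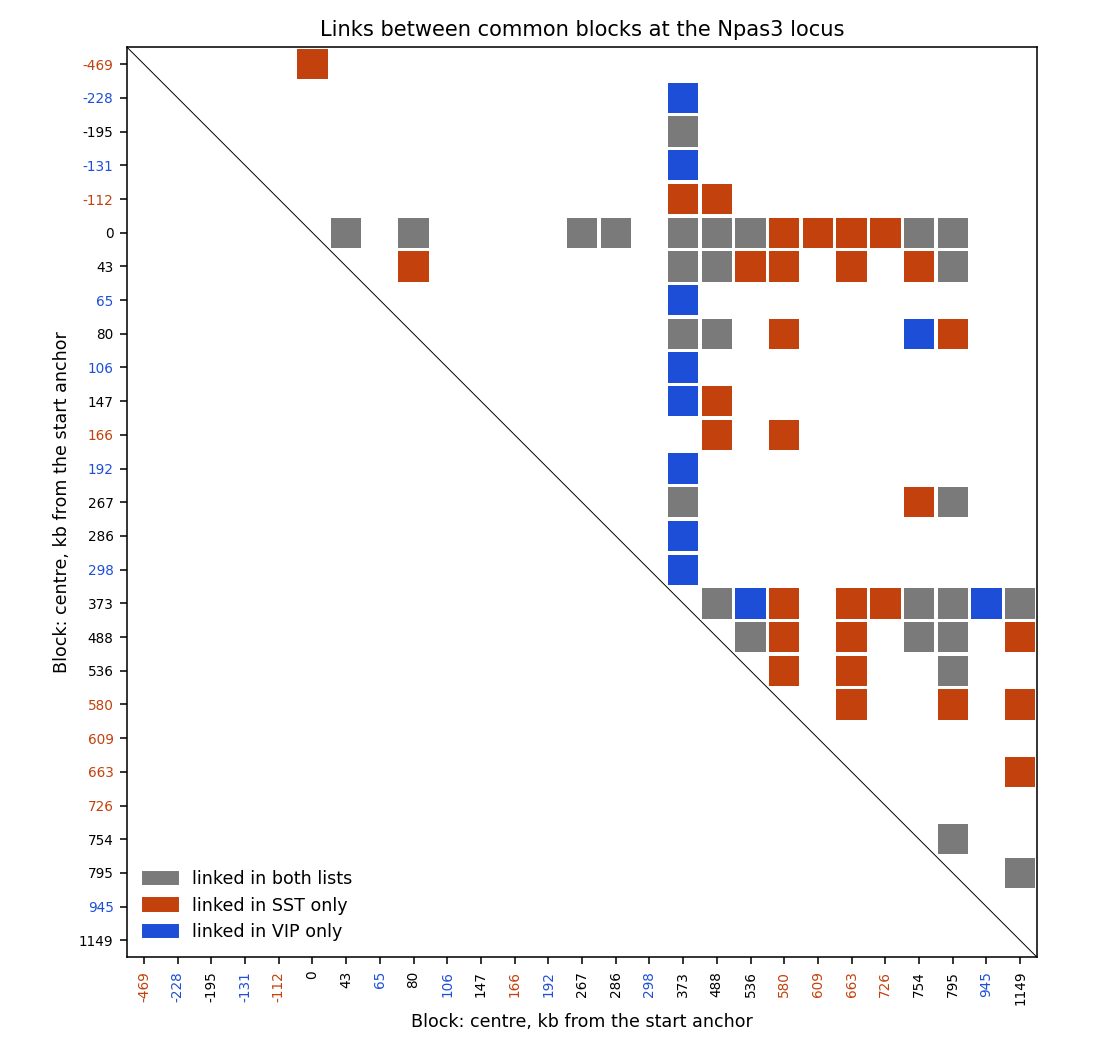
Each filled square is a link between a pair of the 27 common blocks, which are labelled on both axes by the distance of their centre from the start anchor (kb); black labels mark blocks with anchors of both lists, and coloured labels those of one list. Between blocks with black labels, 27 links are grey (both lists), 7 are SST only and 4 are VIP only; the column at 373 kb holds the VIP star and the columns at 580.0 and 663 kb the SST links to the stretch without VIP anchors.

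Interactions at Npas3 were long in both cell types. The median distance between anchor midpoints was 362 kb in SST (interval 324 to 419.9 kb) and 315 kb in VIP (276 to 383 kb), against 178 kb and 167 kb over the lists. The shortest and longest members spanned 20.3 and 799 kb in SST and 14.5 and 810.1 kb in VIP. Distances above 200 kb made up 75 of 96 SST members (78.1%, 68.5 to 85.9%) against 47.8% of the SST list, and 48 of 67 VIP members (71.6%, 59.3 to 82.0%) against 46.8% of the VIP list. Busy regions were long in general: of the same windows, 10 of 24 in SST and 10 of 21 in VIP had a median distance at least that of the locus. Between 200 and 400 kb, 23 of 33 SST members (69.7%) and 22 of 25 VIP members (88.0%) were shared, where the lists had 20.7% and 22.2%. Between 400 and 600 kb, 14 of 26 SST members and 13 of 16 VIP members were shared, 53.8% and 81.2%, where the lists had 17.8% and 25.2%. Above 600 kb, 7 of 16 SST members (43.8%) and 6 of 7 VIP members (85.7%) were shared, where the lists had 12.7% and 18.0%. Shared SST members had a median of 350 kb (286 to 411 kb) and the others 414 kb (295 to 500.3 kb); in VIP the medians were 338 kb (286 to 404 kb) and 191 kb (38.6 to 584 kb), so the intervals overlap in both lists.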

How the data were processed

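H3K27ac HiChIP was made from INTACT-purified nuclei of 2 interneuron classes. The authors deposited headerless files of 6 columns, the chromosome, start and end of each anchor in base pairs, and no other value. HiC-Pro and build mm9 are named in the submitters' processing notes; the sources used here do not give the interaction caller, its threshold or how anchors were defined. From the files, members were selected by position, anchors were compared by overlap of at least 1 bp (ends taken as exclusive) and distances were measured between midpoints. Alternatives varied the window, the overlap, the distance limit, merging of anchors within 5 kb and the grid of windows. Named anchors are those of the window with 10 or more interactions and the widest, and the other windows are the 3 with the highest smaller count per 1000; further anchors were named after their values were seen. The members and these rules were chosen with earlier results of these data known. Comparisons of interactions at the promoters of listed genes, which need an mm9 annotation, were not run. The overlap step was tested on simulated lists. Promoter sequence and gene order are from RefSeq (GRCm38.p6). Software versions were networkx 3.6.1, scipy 1.17.1, pandas 2.3.3, numpy 2.4.6, matplotlib 3.10.9 and Python 3.11.15.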

Additional observations from a re-analysis of the deposited data

How the results depend on the processing

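Of 92 values under 15 alternatives, 71 stayed within the interval of the reported value or within 1.5 times a reported count, and 21 moved. Some of the 71 could not move, such as the VIP count when only SST anchors were left out, so the tally is no measure of robustness. Limiting interactions to 200 kb left 21 SST and 19 VIP members with medians of 75.7 and 65.9 kb, by construction, and VIP shares of 63.2% shared and 75.0% linked where both anchors were present. Merging anchors within 5 kb left 52 SST and 28 VIP members and 12 and 15 interactions at the busiest anchor, since merged links are counted once; among VIP members with both anchors present in SST, 95.7% were then linked there. Identical anchors gave 0% shared in both lists, as the start anchor alone has identical borders. Chosen after seeing the data were common blocks (57 SST and 38 VIP links, 47.4% of SST shared), leaving out the SST anchors in the stretch without VIP anchors (80.3% of SST shared), leaving out the widest VIP anchor (44 VIP members, 35.4% of SST and 90.9% of VIP shared, ratio 1.77, interval 1.23 to 2.59), and counting touching borders as overlap. Both removals left the other list whole. By construction, removing the SST anchors can only raise the SST share and lower the ratio. Removing the VIP anchor can only lower the SST share and raise the ratio. The SST to VIP ratio of 1.17 fell below 1 with distinct anchors (0.868, interval 0.462 to 1.63) and up to 200 kb (0.916, 0.469 to 1.80). It also did so without the SST anchors in that stretch (0.865, 0.610 to 1.23). All of these intervals include equality. With anchors within 5 kb merged it rose to 1.52, with an interval of 0.942 to 2.50 that includes equality. Where no construction is named, the cause was not tested. The gene span and the widened window gave the same members by count, so their values, all among the 71, repeat the reported ones. No paired analysis was possible because the replicates have no values of their own here: 1 list stands for each cell type, and leaving out a replicate was likewise not possible. Contacts below the unknown depth and threshold of a list cannot be told apart from absent ones.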
